A study of Homo sapiens with 4 samples.

Results

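Deubiquitinase mRNAs of irradiated HEK293T cells were examined for their m6A enrichment and RNA level, with and without knockdown of the m6A demethylase ALKBH5. The genes were chosen by symbol: USP genes, OTUD, OTUB and UCHL genes, JOSD genes, and BAP1, ATXN3, STAMBP, STAMBPL1, VCPIP1, ZRANB1, YOD1, CYLD, TNFAIP3 and BRCC3. Of 14911 genes in the count tables, 72 matched, and 31 of them averaged at least 50 counts per library, as did 5320 genes in all. Among these 31 deubiquitinases, the 9 of the OTU family had a median m6A enrichment of 0.73 on the log2 scale and the 19 of the USP family one of -0.53, beside -0.10 over all genes. Without the filter on counts, which favours enriched genes, these medians were 0.29, -0.59 and -0.23. Few of them differed by 1.5-fold or more between the populations, and the largest difference was a higher input RNA of ZRANB1 after ALKBH5 knockdown.

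Ubiquitin is a small protein that ligases attach to other proteins, singly or in chains, and deubiquitinases take it off again or trim the chains. USP, OTU, UCH and Josephin enzymes are cysteine proteases named after their catalytic domains, and JAMM enzymes are metalloproteases. In the DNA damage response they act on histones, PCNA, FANCD2, p53 and MDM2, so that a lesion can be marked and the mark later erased. N6-methyladenosine (m6A) is a methyl group on adenosines of mRNA, often within a GGAC core, which ALKBH5 can remove.

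The data were 4 libraries of poly(A) RNA from HEK293T, a line from human embryonic kidney whose SV40 large T antigen inhibits p53. All cells had been exposed to X-rays (10 Gy), and unexposed cells were not analysed here. Cells with a control shRNA (shCTL) gave an input library of fragmented mRNA and an m6A-IP library of the fragments bound by an m6A antibody, and cells with an shRNA against ALKBH5 (shA5) gave the same pair. With 1 library per group no difference has a replicate check, no test was made, and all intervals are 95% intervals for counting error only. The time from exposure to harvest and which of the study's ALKBH5 shRNAs was used are not given for these libraries in the sources used here.

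For shCTL the library totals were 2237819 counts in the input and 3944402 in the m6A-IP, for shA5 they were 1311390 and 3148119, and the deubiquitinases took 0.376 to 0.401% of them. The target of the knockdown, ALKBH5, changed by -0.97 in input RNA (log2, interval -1.25 to -0.70). How reads shared between transcripts were counted is not given in the sources used here, and some genes that every cell uses had few counts: GAPDH had 78 in the shCTL input and EIF3F had 0, against 51262 for EEF2. A low count was therefore not read as absence of an mRNA, and levels of different genes carry this limit. Of the markers known from this line, KRT8 had 48 counts in the shCTL input, KRT18 had 11, VIM 4, EPCAM 3 and PAX2 0, while the blood and liver genes PTPRC, CD3E, HBB and ALB were listed in no library.

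In level per length, the most abundant deubiquitinase mRNA in the shCTL input was USP24, with 72.9 CPM (counts scaled to equal library totals) per kilobase of transcript. USP24 acts on several regulators of cell survival. UCHL1, a protease of ubiquitin's own C-terminus that is best known from neurons, followed at 55.5 CPM per kilobase, and the membrane-linked Josephin enzyme JOSD1 at 52.6. The next were USP34 at 39.4, USP42 at 35.4 and OTUD3 at 31.1 CPM per kilobase. The lowest of the 31 was OTUD7A at 1.43 CPM per kilobase. In the shA5 input JOSD1 stood first, with 63.3 CPM per kilobase, followed by USP24 with 59.7. OTUD3 (42.8), UCHL1 (42.5), USP42 (39.0) and USP34 (33.0 CPM per kilobase) made up the rest of the highest 6, so the same 6 genes led in both inputs in another order.

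**Figure D1:**
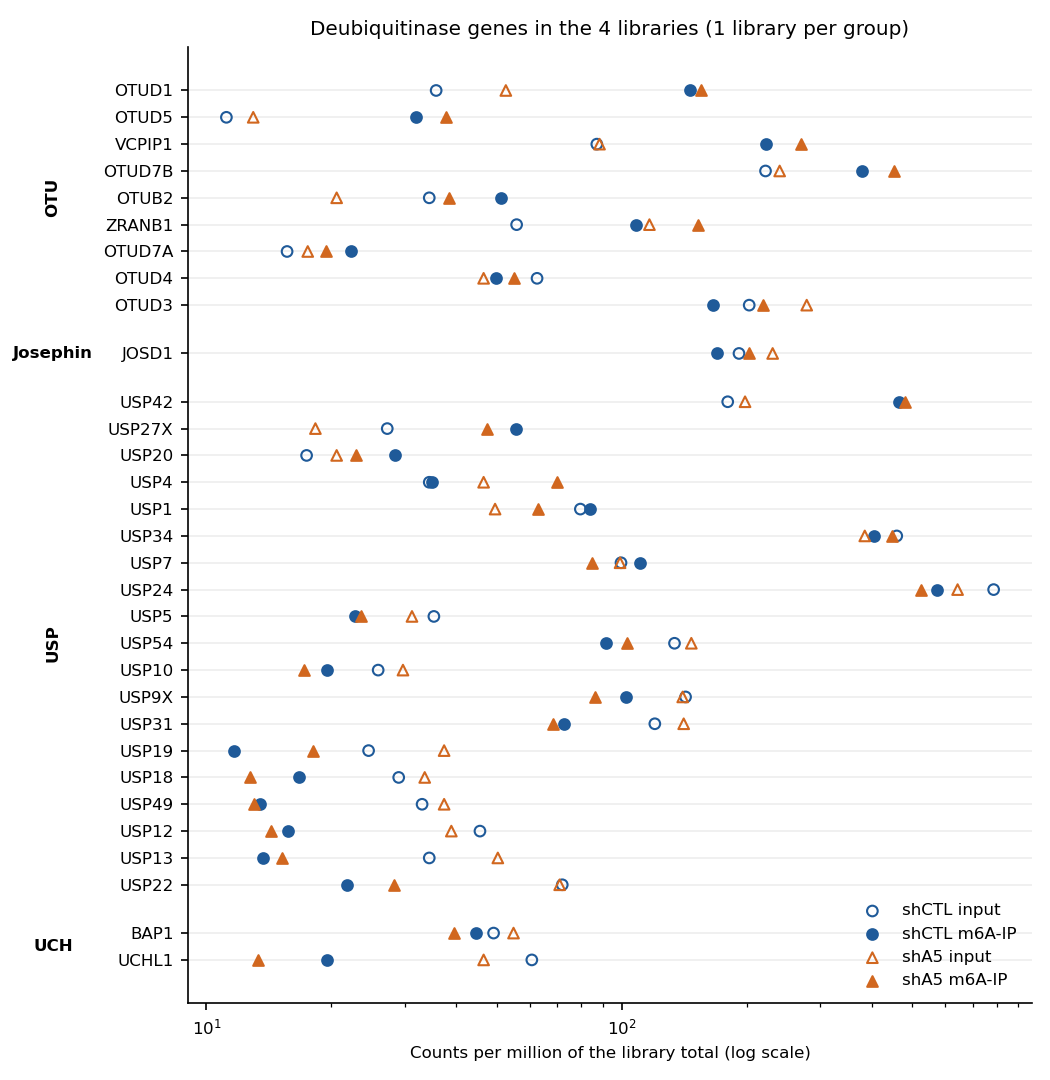
Level of the 31 deubiquitinase genes in each of the 4 libraries, in CPM on a log axis, grouped by family. Open symbols are inputs and filled symbols m6A-IP libraries, with circles for shCTL and triangles for shA5. For OTUD1 both filled symbols (146 and 156 CPM) lie to the right of both open symbols (35.7 and 52.6 CPM), and for UCHL1 they lie to the left.

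The m6A enrichment of a gene was the log2 ratio of its CPM in the m6A-IP to its CPM in the input, with 0.5 CPM added to each. A value of 0 stands for equal shares of both library totals, not for a lack of m6A. The median over the 31 deubiquitinases was -0.18 in shCTL and -0.22 in shA5, beside -0.11 and -0.10 over the 5320 genes. At least 1.5-fold enrichment was reached by 8 of the 31 in shCTL, where 22.5% of all genes reached it, and by 7 in shA5, where 24.3% did. In shCTL these were OTUD1, OTUD5, VCPIP1, USP42, USP27X, ZRANB1, OTUD7B and USP20, and in shA5 OTUB2 took the place of ZRANB1 and USP20. Among these genes OTUD5, USP27X and USP20 had inputs averaging under 50 counts and passed the filter through their IP counts. At or under the reciprocal of 1.5-fold were 9 deubiquitinases in shCTL (30.3% of all genes) and 10 in shA5 (31.7% of all genes). As a group the deubiquitinases were thus close to the background share in all of these counts. Across the 31 genes the enrichment in shCTL followed that in shA5, with Spearman's rho 0.94 and Pearson's r 0.94, beside 0.93 and 0.92 across all 5320 genes. Genes are not replicates, and the inputs and IPs of all genes come from the same 4 libraries.

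OTUD1, which trims K63-linked ubiquitin chains, had the highest mean enrichment of both populations, though in shA5 VCPIP1 stood above it. The shCTL input held 80 of its counts (35.7 CPM) and the m6A-IP 575 (146 CPM), and in shA5 these were 69 (52.6 CPM) and 490 (156 CPM). Its enrichment was 2.01 (1.69 to 2.38) in shCTL and 1.56 (1.20 to 1.95) in shA5. The gene is a single exon of 3303 nt on the plus strand of chromosome 10, from 23439075 to 23442377 (hg38). OTUD5, a negative regulator of type I interferon, had 25 and 126 counts in the shCTL input and m6A-IP and 17 and 119 in those of shA5. That gave an enrichment of 1.47 (0.89 to 2.20) in shCTL and 1.51 (0.80 to 2.37) in shA5, with wide intervals since the inputs were thin. VCPIP1 works with the ATPase VCP in Golgi reassembly. Its 195 and 878 counts in shCTL and 116 and 851 in shA5 gave 1.35 (1.13 to 1.58) and 1.61 (1.33 to 1.90).

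USP42, a deubiquitinase of p53, had the highest mean enrichment of its family over both populations, though in shA5 USP27X stood above it. The shCTL libraries held 403 counts (180 CPM, input) and 1840 (466 CPM, IP), and the shA5 libraries 260 (198 CPM) and 1516 (482 CPM). The enrichment was 1.37 (1.22 to 1.53) in shCTL and 1.28 (1.09 to 1.48) in shA5. USP42 lies on the plus strand of chromosome 7, from 6104949 to 6161564, and its counted transcript has 18 exons. USP27X, an intronless relative of USP22 on chromosome X (49879484 to 49882558), had 61 and 219 counts in shCTL and 24 and 149 in shA5. Its enrichment was 1.01 (0.61 to 1.46) and 1.35 (0.74 to 2.06). Where 4 counts are given in a row, here and later, the order is input and IP of shCTL, then input and IP of shA5. OTUD7B, which removes K11-linked chains from substrates of the anaphase-promoting complex, was tied down most tightly of these, at 0.77 (0.62 to 0.92) in shCTL and 0.91 (0.73 to 1.09) in shA5, from 497, 1494, 315 and 1422 counts.

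At the other end stood UCHL1, with 136 input counts (60.8 CPM) and 77 IP counts (19.5 CPM) in shCTL, and 61 (46.5 CPM) and 42 (13.3 CPM) in shA5. Its enrichment was -1.61 (-2.06 to -1.22) in shCTL and -1.76 (-2.40 to -1.21) in shA5, so its mRNA was under-represented in both pull-downs. UCHL1 lies on chromosome 4 from 41256413 to 41268455. USP22, the histone H2B deubiquitinase of the SAGA complex (chromosome 17, 20999596 to 21043760), had 161 and 86 counts in shCTL and 93 and 89 in shA5, an enrichment of -1.70 (-2.12 to -1.34) and -1.31 (-1.76 to -0.89). USP13, a relative of the ubiquitin-recycling enzyme USP5, had -1.30 (-1.86 to -0.81) and -1.69 (-2.29 to -1.16). USP12, which is activated by WDR48 and WDR20, had -1.51 (-2.02 to -1.07) and -1.41 (-2.06 to -0.84). For USP49, another H2B deubiquitinase, the values were -1.27 (-1.84 to -0.77) and -1.49 (-2.16 to -0.89). USP18, which removes the ubiquitin-like ISG15, had -0.78 (-1.31 to -0.28) in shCTL and -1.37 (-2.06 to -0.75) in shA5. In both populations the counting intervals of neighbours in the order overlapped for all 30 neighbouring pairs. Genes a few ranks apart could still differ beyond counting error: in shCTL the interval of OTUD1 (1.69 to 2.38) lay above that of USP42 (1.22 to 1.53).

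**Figure D2:**
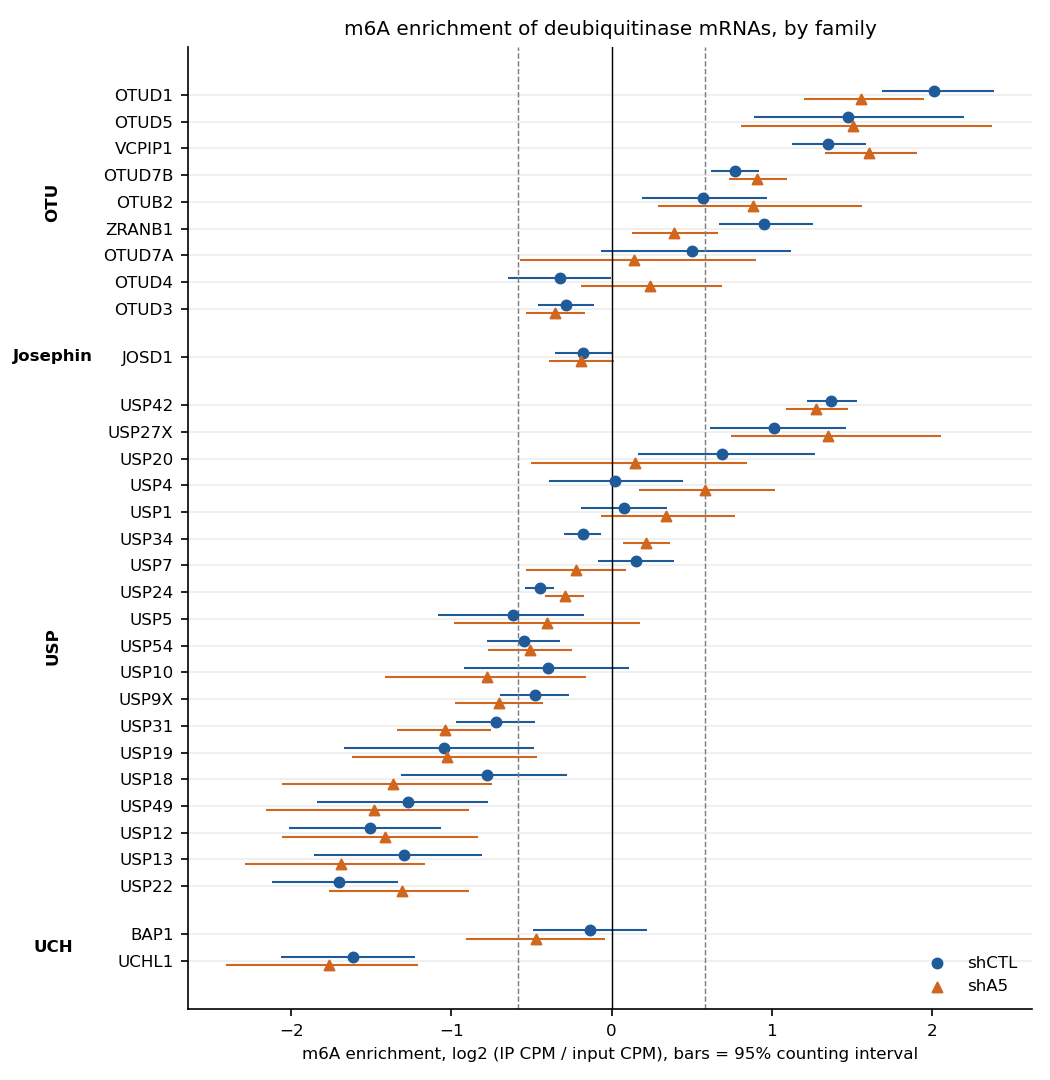
m6A enrichment of the 31 deubiquitinase genes in shCTL (circles) and shA5 (triangles) as log2 of IP over input CPM, by family and ordered by the mean of both. Bars are 95% counting intervals and dashed lines mark 1.5-fold. The OTU genes that passed the count filter run from 2.01 (OTUD1, shCTL) down to -0.35 (OTUD3, shA5). Of the 19 USP genes shown, 13 have a mean below 0.

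For the genes at both ends of the order, the GGAC nearest to the end of the coding sequence is shown with its flanks, to let the letters be compared. The core is in capitals and the sequence is that of the mRNA written as DNA, from hg38 with the Gencode v44 transcripts. OTUD5, VCPIP1 and UCHL1 are not shown.

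OTUD1 (chr10:23440737-23440757, plus strand): tcagtaacGGACactatgatg
USP42 (chr7:6156969-6156989, plus strand): aaggcgtcGGACctttccgtg
USP27X (chrX:49881686-49881706, plus strand): gatctaaaGGACctacttgac
OTUD7B (chr1:149943946-149943966, minus strand): gcttctatGGACaccctgaga
USP18 (chr22:18168031-18169858, plus strand, across exons 6 and 7): acactggaGGACgccctgcac
USP49 (chr6:41798748-41798768, minus strand): ttggctcaGGACactacacag
USP12 (chr13:27069277-27069297, minus strand): cagtctcgGGACtgagaggga
USP13 (chr3:179765813-179765833, plus strand): agcccgaaGGACctagagtca
USP22 (chr17:21003073-21004221, minus strand, across exons 12 and 13): gacgtcctGGACagcgaaggg

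The first 4 come from the enriched end and the last 5 from the depleted end. All 30 deubiquitinase transcripts with a sequence held a GGAC on the sense strand, as did 99.6% of the counted transcripts of all genes. OTUD1, with the highest enrichment in the mean of both populations, had 8 GGAC and 0 GGACT in 3303 nt, and UCHL1, with the lowest, had 7 GGAC and 2 GGACT in 1103 nt. Over the 30 genes the number of GGAC per kilobase did not follow the mean enrichment (Spearman's rho -0.020), whereas over 5292 genes rho was 0.34. GC content gave 0.12 over the deubiquitinases and 0.38 over all genes. These are descriptions over transcripts that share 4 libraries, and a match of these letters is not a measured m6A site.

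By family, 9 OTU genes had a median enrichment (mean of both populations) of 0.73, with quartiles of 0.32 and 1.48. Of the 9, 7 lay above 0 in shCTL and 8 in shA5, 5 were at least 1.5-fold enriched in each population (22.5% of all genes in shCTL and 24.3% in shA5), and 0 were at or under the reciprocal (30.3% and 31.7% of all genes). The 19 USP genes had a median of -0.53, with quartiles of -1.05 and 0.11. Of these 19, 6 lay above 0 in each population, 3 were at least 1.5-fold enriched in shCTL and 2 in shA5, and 8 and 9 were at or under the reciprocal, to be read beside the same shares of all genes. The median over all 5320 genes was -0.10, with quartiles of -0.76 and 0.54, and 45.5% of all genes lay above 0 in shCTL and 46.3% in shA5. The UCH family had only UCHL1 and BAP1, and the Josephin family only JOSD1, at -0.18 in shCTL and -0.19 in shA5. No JAMM gene passed the count filter. The filter takes in the m6A-IP libraries and so favours enriched genes: of the deubiquitinases that passed, 5 had inputs averaging under 50 counts (OTUD5, OTUD7A, USP10, USP20 and USP27X), as did 688 of the 5320 genes. With the 50 counts asked of the inputs alone, a setting chosen after the data had been seen, the medians were 0.73 for 7 OTU genes, -0.59 for 17 USP genes and -0.25 for 4756 genes in all. With no filter they were 0.29 for 14 OTU genes, -0.59 for 48 USP genes and -0.23 for all 14911. Of the OTU genes that the filter left out, YOD1 was under the reciprocal of 1.5-fold in both populations. Its enrichment was -2.01 (-2.87 to -1.38) in shCTL and -1.83 (-3.20 to -0.81) in shA5, on 56, 23, 18 and 11 counts. TNFAIP3 was at 0.17 and 0.34, and the others left out averaged under 10 counts. Both family medians kept their sign under every alternative scaling, filter, pseudocount and GC correction that was tried, from 0.29 to 0.86 for OTU and from -0.59 to -0.36 for USP.

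The families also differed in gene structure. The counted OTU transcripts had a median of 8.5 exons and a longest exon of 5188.5 nt (8 genes), and the USP transcripts 18 exons and 1716 nt (19 genes). Over all genes these medians were 9 exons and 1893.5 nt. Over all genes enrichment was lower with more exons. The median was 1.07 for 226 genes with 1 exon, 0.016 for 2672 genes with 2 to 9, -0.27 for 1616 genes with 10 to 19 and -0.35 for 778 genes with 20 or more. The deubiquitinases gave 1.48 for the 2 genes with 1 exon (OTUD1 and USP27X), 0.013 for 10 genes, -0.45 for 8 genes and -0.44 for 10 genes in the same classes. Spearman's rho between exon number and enrichment was -0.30 over 30 deubiquitinases and -0.27 over all genes. For the longest exon it was 0.16 and 0.070. The part of exon structure in the difference between the families was not tested.

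**Figure D3:**
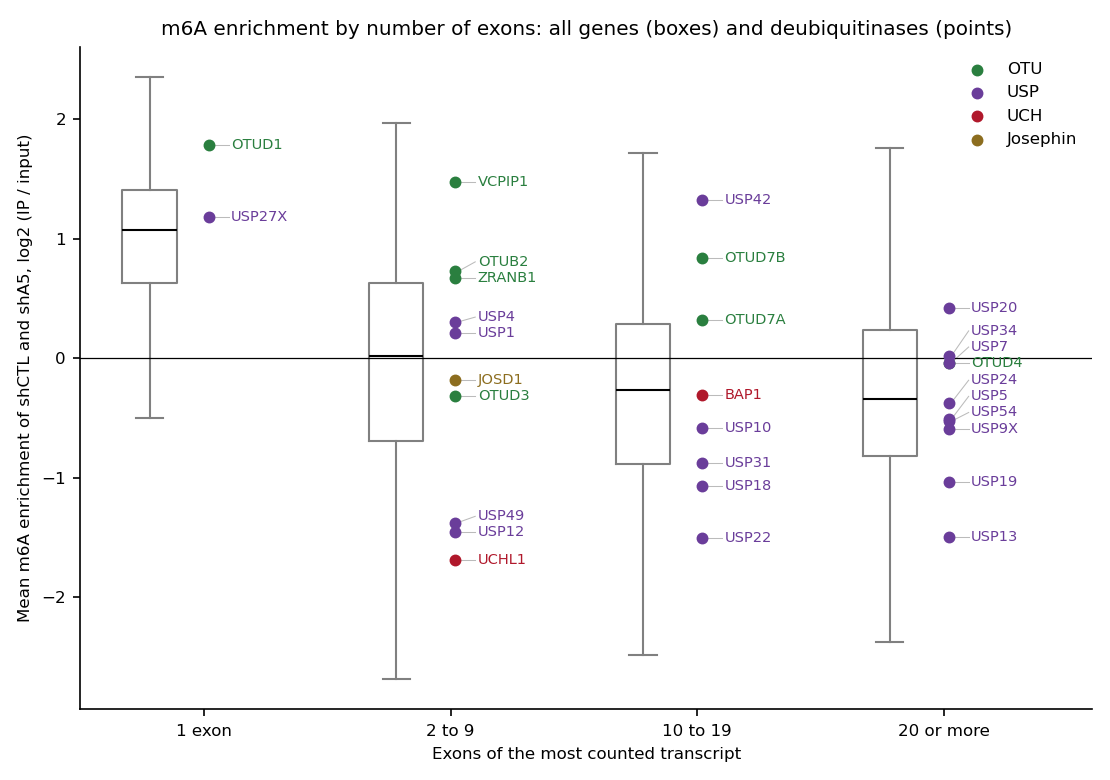
Mean m6A enrichment of shCTL and shA5 (log2 of IP over input) by the number of exons of the most counted transcript. Boxes give the median and quartiles of all genes of a class with whiskers to 1.5 times the quartile range, and points are 30 deubiquitinases coloured by family. The medians of all genes fall from 1.07 (1 exon) to -0.35 (20 exons or more), and the deubiquitinases spread widely within each class.

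Relatives within a family could lie far apart. USP27X and USP22, which share the role of removing ubiquitin from histone H2B, had mean enrichments of 1.18 and -1.51. USP51, the remaining close relative, had 38, 93, 14 and 47 counts and stayed just under the count filter. Its enrichment was 0.46 (-0.09 to 1.06) in shCTL and 0.47 (-0.40 to 1.46) in shA5. USP27X, with 61 and 24 input counts, passed the filter through its IP counts. OTUD7B and OTUD7A differed less, at 0.84 and 0.32, and the interval of OTUD7A included 0 in both populations. The relatives USP13 and USP5 were both below 0, at -1.49 and -0.51.

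The change of enrichment from shCTL to shA5 had a median of -0.010 over the deubiquitinases and 0.0036 over all genes. Of the 31, 15 lay above 0, as did 50.5% of all genes. Each library was scaled to its own total, so a change of m6A common to most genes would not show here. At least 1.5-fold higher in shA5 were 0 of the 31 (5.38% of all genes), and 1 was lower by as much (5.09% of all genes). The lower gene was USP18. Its shCTL counts were 65 (29.0 CPM) in the input and 66 (16.7 CPM) in the IP, and its shA5 counts 44 (33.6 CPM) and 40 (12.7 CPM). Its change of -0.59 had an interval of -1.45 to 0.24 and lay at the threshold, and with edgeR or DESeq2 scaling it was -0.58 and no longer past it. USP41, a near-identical copy of USP18 on the same chromosome, had at most 1 count per library, and how reads common to both were counted is not known here.

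Below 1.5-fold, 4 deubiquitinases had a counting interval of the enrichment change that left out 0, of which 3 lay above 0 (8.18% of all genes) and 1 below (8.06% of all genes). USP34, a very large enzyme that acts on axin in Wnt signalling, had 1029 input counts (460 CPM) and 1600 IP counts (406 CPM) in shCTL, and 505 (385 CPM) and 1409 (448 CPM) in shA5. Its enrichment was -0.18 (-0.29 to -0.07) in shCTL and 0.22 (0.07 to 0.37) in shA5, a change of 0.40 (0.21 to 0.59). The input change was -0.26 and the IP change 0.14. With a trend on GC content removed, the enrichment was above 0 in both populations (0.22 and 0.69) and the change was 0.46. OTUD4, a scaffold for repair of alkylated DNA, went from -0.32 to 0.24, a change of 0.56 (0.02 to 1.12), on 140, 197, 61 and 173 counts. USP24 went from -0.45 to -0.29, with an interval of 0.00 to 0.31 for its change of 0.16, and ZRANB1, described next, went down.

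Input RNA was at least 1.5-fold higher in shA5 for 2 deubiquitinases (3.44% of all genes) and lower by as much for 2 (6.43% of all genes). In bulk RNA, fewer cells that express a gene and less RNA per cell cannot be told apart. The median change of the 31 was 0.14, beside -0.020 over all genes, and 19 of the 31 were above 0, as were 47.5% of all genes. ZRANB1 (TRABID), which cuts K29- and K33-linked chains, differed most. Its input held 125 counts (55.9 CPM) in shCTL and 153 (117 CPM) in shA5, a change of 1.06 (0.71 to 1.42). The m6A-IP held 428 (109 CPM) in shCTL and 482 (153 CPM) in shA5, a smaller change of 0.49 (0.31 to 0.69). Its enrichment therefore went from 0.95 (0.67 to 1.26) to 0.39 (0.13 to 0.66), a change of -0.56 (-0.97 to -0.16). The gene lies on the plus strand of chromosome 10 from 124942123 to 124988189, where exons of the antisense gene CTBP2 overlap it. CTBP2 itself changed by 0.24 in input and 0.31 in IP, and whether the counting used strand is not given in the sources used here.

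USP19, an enzyme with endoplasmic reticulum-anchored and cytosolic forms, had 55 input counts (24.6 CPM) in shCTL and 49 (37.4 CPM) in shA5. The change of 0.59 (0.02 to 1.19) was at the threshold. Its 46 and 57 counts in the m6A-IP libraries gave an IP change of 0.61 (0.05 to 1.23), so its enrichment stayed at -1.04 and -1.03. Summing over transcripts mattered for this gene: with its most counted transcript alone the input change was -0.35.

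OTUB2, which trims K63-linked chains, had 77 input counts (34.4 CPM) in shCTL and 27 (20.6 CPM) in shA5, a change of -0.73 (-1.43 to -0.09). Its m6A-IP had 202 (51.2 CPM) and 121 counts (38.4 CPM), a change of -0.41 (-0.75 to -0.08). OTUB2 lies on chromosome 14 from 94026340 to 94048930, and exons of the antisense gene DDX24 overlap it. USP1, which with its cofactor WDR48 takes ubiquitin off FANCD2 and PCNA, had 178 input counts (79.5 CPM) in shCTL and 65 (49.6 CPM) in shA5, a change of -0.68 (-1.12 to -0.26). Its m6A-IP had 331 (83.9 CPM) and 198 counts (62.9 CPM), a change of -0.41 (-0.68 to -0.16). Both genes were thus lower in shA5 in the input as well as in the IP. USP1 lies on chromosome 1 from 62436297 to 62451804.

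In the m6A-IP libraries 2 deubiquitinases were at least 1.5-fold higher in shA5 (2.58% of all genes) and 0 were lower by as much (4.89% of all genes). Besides USP19 this was USP4, a relative of USP15 and USP11 that takes part in DNA end resection. USP4 had 138 counts (35.0 CPM) in the shCTL m6A-IP and 220 (69.9 CPM) in that of shA5, a change of 0.99 (0.68 to 1.32). Its inputs had 77 (34.4 CPM) and 61 counts (46.5 CPM), a change of 0.43 (-0.07 to 0.94). The enrichment of USP4 was 0.02 (-0.39 to 0.45) in shCTL and 0.58 (0.17 to 1.02) in shA5, a change of 0.56 (-0.04 to 1.17). Exons of C3orf62 overlap it on the same strand, and that gene changed by 0.40 in input and 0.41 in IP.

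**Figure D4:**
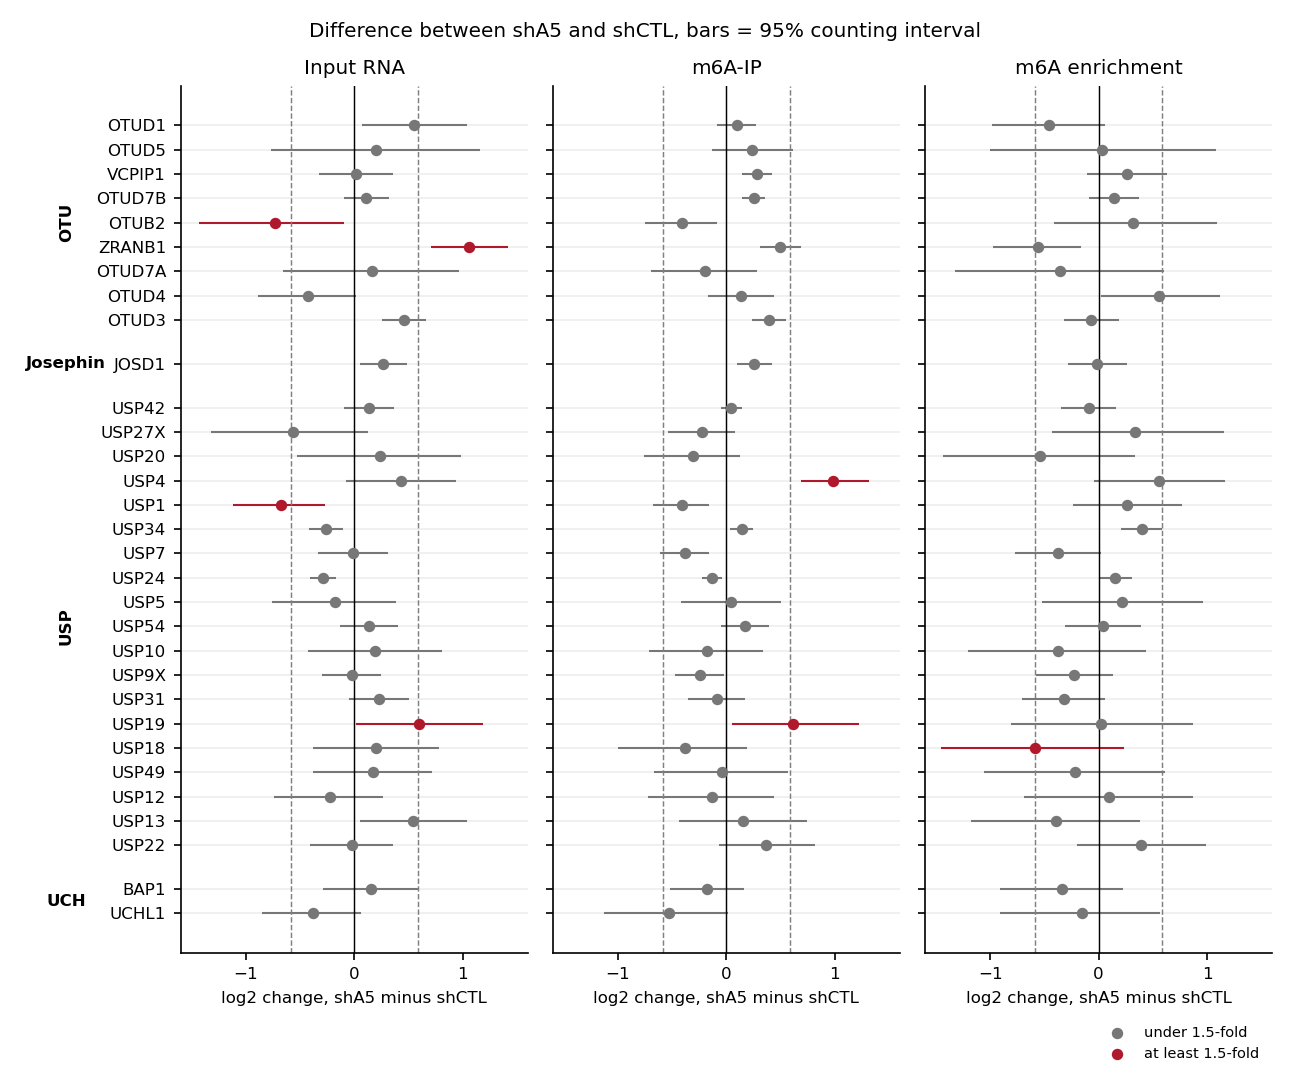
Differences between shA5 and shCTL for the 31 deubiquitinase genes in input RNA, m6A-IP and m6A enrichment (log2, bars are 95% counting intervals, dashed lines 1.5-fold). Red points are at least 1.5-fold: ZRANB1 (1.06), USP19, OTUB2 and USP1 in input, USP4 (0.99) and USP19 in the IP, and USP18 (-0.59) in enrichment, where its bar crosses 0.

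Of 22 deubiquitinases listed for DNA damage and chromatin, 9 passed the count filter: USP1, USP4, USP7, USP9X, USP10, USP20, USP22, BAP1 and ZRANB1. Their median enrichment was 0.024 in shCTL and -0.22 in shA5, and the median of the changes was -0.34, beside 0.0036 over all genes. The change lay above 0 in 3 of the 9 (USP4, USP22 and USP1), as it did in 50.5% of all genes. The list was chosen with earlier results of these data known. It leaves out USP42, USP49, USP27X and OTUD4, for which related roles are named above. Their enrichment changed by -0.09, -0.22, 0.33 and 0.56, so these medians depend on the list. Of the 9, 0 were 1.5-fold or more higher in enrichment (5.38% of all genes) and 0 lower (5.09% of all genes). USP7, which removes ubiquitin from MDM2 and p53, had 223 (99.7 CPM) and 436 counts (111 CPM) in input and IP of shCTL and 130 (99.1 CPM) and 267 (84.8 CPM) in those of shA5. Its input changed by -0.01 (-0.33 to 0.31), its IP by -0.38 (-0.61 to -0.16) and its enrichment by -0.37 (-0.77 to 0.02). BAP1, the histone H2A deubiquitinase that works with ASXL proteins, had 110, 176, 72 and 124 counts in the same order, and its enrichment was -0.14 (-0.49 to 0.22) and -0.47 (-0.91 to -0.04).

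USP9X, which stabilises MCL1, was below 0 in both populations, at -0.48 (-0.70 to -0.26) and -0.70 (-0.98 to -0.43). USP10, which acts on p53 with its partner G3BP1, had -0.40 (-0.92 to 0.11) and -0.78 (-1.41 to -0.16), from 58, 77, 39 and 54 counts. USP20, an enzyme of the ATR and HIF1A pathways, had 39, 112, 27 and 72 counts, and its enrichment of 0.69 (0.17 to 1.27) in shCTL became 0.15 (-0.50 to 0.85) in shA5. The input changes of the 9 ran from -0.68 (USP1) to 1.06 (ZRANB1) with a median of 0.16. The other 13 genes of the list were under the count filter. Among them USP51 and USP48 had means of 48 and 40 counts, UCHL5 30.8 and BRCC3, the K63-specific subunit of the BRCA1-A complex, 0.75.

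Deubiquitinases of NF-kB and innate signalling were represented by OTUD1, OTUD5, OTUD7B and USP18. The former 3 were at least 1.5-fold enriched in both populations (22.5% and 24.3% of all genes) and USP18 was at or under the reciprocal in both (30.3% and 31.7% of all genes). The input changes of the 4 were above 0, as were 47.5% of all genes, and ran from 0.11 (OTUD7B) to 0.55 (OTUD1, interval 0.07 to 1.04). Of the 4, 0 were higher by 1.5-fold or more, where 3.44% of all genes were. CYLD (29, 20, 10 and 13 counts), TNFAIP3 (18, 36, 13 and 40) and YOD1 (56, 23, 18 and 11) were under the filter. All 5 deubiquitinases of endosomes and mitochondria were also under it, and of these USP30 was the best counted with 39, 51, 17 and 47. USP54 had an enrichment of -0.55 (-0.78 to -0.32) in shCTL and -0.51 (-0.77 to -0.25) in shA5.

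The remaining genes stayed under 1.5-fold in every difference. OTUD3 had 454, 656, 366 and 688 counts and changed by 0.46 (0.26 to 0.66) in input and by 0.39 (0.24 to 0.55) in the IP. Its enrichment was -0.29 in shCTL and -0.35 in shA5. JOSD1 changed by 0.27 (0.05 to 0.48) in input and 0.26 (0.10 to 0.42) in the IP. In USP13 the input changed by 0.54 (0.05 to 1.04) and in USP27X by -0.56 (-1.32 to 0.13), both short of 1.5-fold. USP31 had an enrichment of -0.72 (-0.97 to -0.48) and -1.04 (-1.34 to -0.76), and USP5, which takes apart unanchored chains, -0.62 (-1.08 to -0.18) and -0.40 (-0.98 to 0.18). Exons of other annotated genes also overlap those of USP13, USP22, USP31, USP34, USP49 and USP54.

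Under the filter were 41 deubiquitinases, of which 24 had a mean between 10 and 50 counts and 17 less. The best counted after USP51 were USP35, USP48, USP14, USP30, USP2, STAMBP, USP38, USP21, USP46 and UCHL5. USP14, which sits on the proteasome, had 64, 41, 31 and 22 counts, and USP2, which acts on MDM2 and cyclin D1, had 22, 69, 8 and 49. At or under 3 counts in every library were 5 genes, USP45, BRCC3, USP16, USP41 and STAMBPL1, for which no fold is given. A floor of 3 counts stands for 0.761 to 2.29 CPM in these libraries.

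Several genes had counts on more than 1 transcript, and transcripts of 1 gene could differ in enrichment. This comparison covered the 6 genes with at least 20 counts, summed over the libraries, on each of a pair of transcripts and was chosen after the values had been seen. For USP19, ENST00000417901 had 22 and 32 counts in the shCTL input and m6A-IP and 10 and 41 in those of shA5, and ENST00000398888 had 32 and 12 and then 38 and 15. The former was at -0.26 in shCTL and 0.73 in shA5 and the latter at -2.06 and -2.49, a difference of 1.80 (0.61 to 3.33) in shCTL and 3.22 (1.94 to 4.85) in shA5. These transcripts have different last exons: 479 nt at chr3:49108050-49108528 occur only in the former, and 511 nt at chr3:49108675-49109185 only in the latter. Most of their sequence, 3933 nt, is common to both.

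For USP5 the transcript with an additional 69 nt (chr12:6863309-6863377) had the higher enrichment, by 1.19 (0.14 to 2.37) in shCTL and 1.61 (0.33 to 3.11) in shA5. It had 15, 32, 9 and 35 counts, and the shorter form had 64, 58, 32 and 39. For USP20 the transcript with 177 nt more of 3′ UTR was higher by 3.22 (1.76 to 6.38) in shCTL, where the other had 11 and 3 counts, but by 0.20 (-2.48 to 2.49) in shA5. In USP4, USP54 and USP9X the interval of the difference included 0 in both populations. The USP4 transcript with the larger IP change was ENST00000415188, with 61 counts in the shCTL m6A-IP and 126 in that of shA5. Reads from shared sequence could be placed on either transcript, and the rule for this is not given in the sources used here.

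**Figure D5:**
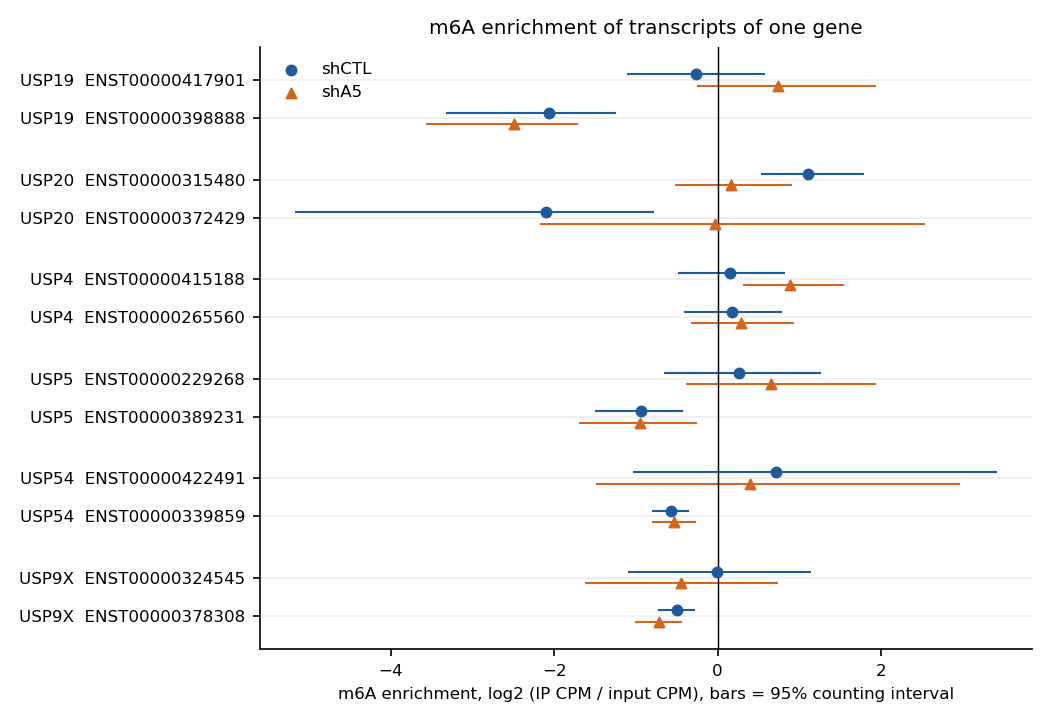
m6A enrichment (log2 of IP over input CPM) of pairs of transcripts of the same deubiquitinase gene in shCTL (circles) and shA5 (triangles), with 95% counting intervals. The bars of the USP19 transcripts do not meet in shA5 (0.73 against -2.49), and those of USP4, USP54 and USP9X overlap.

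Deubiquitinases and relatives of them whose symbols the rule did not take in, and the cofactors of deubiquitinases, were read in the same way. Of these other deubiquitinases and relatives 8 passed the count filter: PSMD14, COPS5, PSMD7, COPS6, USPL1, OTULIN, MINDY3 and MINDY4. Of the 8, 0 were higher in enrichment by 1.5-fold or more (5.38% of all genes) and 1 was lower (5.09% of all genes). It was PSMD14, the deubiquitinase of the proteasome lid. PSMD14 had 275 and 141 counts in shCTL and 167 and 75 in shA5, and its enrichment went from -1.77 (-2.08 to -1.48) to -2.39 (-2.83 to -2.02), a change of -0.63 (-1.15 to -0.13). MINDY3 was the only other one past 1.5-fold, in input, with 74 and 28 counts and a change of -0.62 (-1.31 to 0.01), and 6.43% of all genes were lower in input by 1.5-fold or more. Of the cofactors 18 passed the filter. By 1.5-fold or more, 0 of the 18 were higher in enrichment and 2 lower (5.38% and 5.09% of all genes), and 1 was higher in input and 0 lower (3.44% and 6.43% of all genes). STAM2, the endosomal partner of STAMBP, had 33 and 87 counts in shCTL and 39 and 53 in shA5. Its input changed by 0.99 (0.31 to 1.73) and its enrichment by -1.37 (-2.29 to -0.51). The BAP1 partner ASXL3 had 70, 208, 43 and 111 counts and changed in enrichment by -0.64 (-1.32 to 0.03). WDR48, the cofactor of USP1, USP12 and USP46, had 353, 405, 173 and 353 counts, an input change of -0.26 (-0.53 to 0.01) and an enrichment change of 0.38 (0.04 to 0.73).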

How the data were processed

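m6A-seq libraries of X-ray-exposed HEK293T cells, an input and an m6A-IP each for shCTL and shA5, were analysed, with 1 library per group. The authors aligned reads to hg38 with HISAT2, and deposited whole-number counts for each Ensembl transcript, not normalized. The submitters' processing notes also name bcl2fastq 2.0, fastp 0.23.2, SAMtools 1.9 and MACS2. The study's methods name StringTie for gene quantification. Its version, its use of strand and its rule for shared reads are not given in the sources used here.

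Counts were summed per gene name and divided by library totals (CPM). Enrichment was log2 of IP over input CPM with a pseudocount of 0.5 CPM, and changes were shA5 minus shCTL. Genes averaging at least 50 counts per library (4 libraries) were kept, and 1.5-fold marked a difference. Intervals at 95% are exact (Clopper-Pearson for ratios, conditional odds ratios for changes of enrichment, without the pseudocount). They cover counting error only, as each group has 1 library. Reads carry no molecular identifiers, so copies of a fragment could be counted as separate reads. The shA5 input had the fewest counts, 1311390.

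Named are genes past 1.5-fold, the 6 highest and the 6 lowest in enrichment, the 6 highest in level per length, the DNA damage list, and partner genes past 1.5-fold. Others were named after their values were seen, USP34, OTUD4 and the transcript pairs among them. The members, lists and alternatives were chosen with earlier results of these data known. Level per length used Gencode v44 lengths of the listed transcripts, weighted by their counts. GGAC and GGACT were searched on the sense strand of each gene's most counted transcript, and every GGACT is also a GGAC. This transcript was in the annotation for 30 of the 31 deubiquitinases and 5292 genes in all. Alternatives were edgeR TMM or DESeq2 factors, pseudocounts of 0.1 and 2 CPM, minimum means of 10 and 200 counts, no filter, a 2-fold threshold, the most counted transcript only, removal of a lowess trend on GC content (span 0.3) and, chosen after seeing the data, a mean of 50 counts in the inputs alone. Steps were tested on simulated libraries that differed by set changes and counting error only. Such libraries cannot show how the intervals behave between real ones. Python 3.11.15 (matplotlib 3.10.9, statsmodels 0.14.6, pandas 2.3.3, scipy 1.17.1, numpy 2.4.6) and R 4.3.3 (edgeR 4.0.16, DESeq2 1.42.0) were used. Peaks and coverage tracks were not analysed here. Some items that these rules select are not reported here.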

Additional observations from a re-analysis of the deposited data

Results flagged for a closer look

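Among the 31 deubiquitinases only USP34 had an enrichment that lay on opposite sides of 0 in the populations with both counting intervals off 0. It was -0.18 (-0.29 to -0.07) in shCTL and 0.22 (0.07 to 0.37) in shA5, a difference of 0.40. The difference was not tested, since each population has 1 library. With a trend on GC content removed the values were 0.22 and 0.69, so the opposite signs depend on this correction, while the difference became 0.46. With edgeR or DESeq2 scaling the difference was 0.41. Exons of the antisense pseudogene AHSA2P overlap USP34, and the part of this overlap in the result was not tested.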

How the results depend on the processing

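No paired analysis was possible because the groups hold a single library each, which also meant that no replicate could be left out. Of 126 recomputed medians and numbers of deubiquitinases 98 kept within their limits and 28 moved, all of them numbers. The number with enrichment lower in shA5, 1 as reported, was 0 with edgeR or DESeq2 scaling, a pseudocount of 2 CPM, a mean of at least 200 counts or a 2-fold threshold, 4 with a mean of at least 10 counts, 10 without a filter and 2 with the most counted transcript only. The number with higher enrichment, 0 as reported, was 6, 12 and 1 under the last 3 of these and 1 with the GC trend removed. For higher input RNA (2 as reported) it was 1 with a pseudocount of 2 CPM, at least 200 counts or 2-fold, 5 with at least 10 counts and 13 without a filter. For lower input RNA (2 as reported) it was 9 with at least 10 counts, 0 with at least 200 or at 2-fold, and 15 without a filter. Enriched in shCTL (8 as reported) were 5 with at least 200 counts or at 2-fold and 15 without a filter, and in shA5 (7 as reported) 4 with at least 200 counts and 11 without a filter. With the 50 counts asked of the inputs alone (27 deubiquitinases, chosen after seeing the data) 5 were enriched in shCTL (19.1% of all genes) and 2 lower in enrichment (4.71% of all genes). The filter sets how many genes are counted, 55 with at least 10, 13 with at least 200 and 72 without, and the share of all genes past 1.5-fold moved with it. With at least 10 counts 12.6% of all genes were higher and 13% lower in enrichment, and 9.32% higher and 12.5% lower in input. Without a filter these were 22.7%, 21.4%, 15.3% and 19.9%, and with at least 200 counts 1.65%, 1.08%, 1.08% and 3.33%. At 2-fold they were 0.846%, 0.771%, 0.47% and 1.15%. Enriched in shCTL and shA5 were 21.6% and 24.5% of all genes without a filter, 29.1% and 31% with at least 200 counts, and 10.1% and 12% at 2-fold. With the most counted transcript only, 5.58% were higher and 4.9% lower in enrichment, and with the GC trend removed 5.25% were higher. With edgeR scaling, DESeq2 scaling and a pseudocount of 2 CPM 4.87%, 4.91% and 4.62% were lower in enrichment.

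Of 925 recomputed values of single genes 903 stayed within their counting intervals, which for thin genes are too wide to show stability, 17 moved and 5 turned sign. With the most counted transcript only, USP19 had an enrichment of 0.73 in shA5 (-1.03 as reported) and an input change of -0.35 (0.59 as reported). With the GC trend removed, the enrichment in shCTL was 0.048 for OTUD4 and 0.22 for USP34, and that in shA5 was 0.072 for USP24 (-0.32, -0.18 and -0.29 as reported). The cause was not tested.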
